A study of Rattus norvegicus with 12 samples.

Results

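Fam212b, Lrrc25, Sulf2, Unc5b, Zfp862 and Hdgfrp3 are 6 genes that stood higher in rat beta-cell-like cells given islet amyloid polypeptide (IAPP). They are not on the list of core p53 arrest and death genes used here, and whether p53 acts on them was not tested. They were picked by symbol from a table of 31368 genes for their large rises after IAPP. The values that chose them were therefore those of IAPP cells against control cells, which are given here as a description and not as a test. Among 16814 genes with enough counts to be tested, which included all 6, their rises ranked 7th for Fam212b, 16th for Lrrc25, 26th for Sulf2, 31st for Unc5b, 122nd for Zfp862 and 532nd for Hdgfrp3. Hdgfrp3, with a fitted fold of 1.84, had the smallest rise of the 6.

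The cells were INS-1 832/3, a clonal rat insulinoma line that secretes insulin, labelled wild type and grown in RPMI with fetal serum. One group of cells had urolithin B, which gut microbes make from plant ellagitannins, at 50 uM for 12 h and then IAPP, a hormone that beta cells release with insulin and that aggregates into amyloid, at 2 uM for 24 h. Another group had IAPP alone at 2 uM for 24 h, another had urolithin B alone at 50 uM for 12 h, and the control group was left untreated. The species of the IAPP sequence and any further time in culture after urolithin B alone were not stated in the labels. Each of the 4 groups had 3 libraries of 3prime RNA sequencing, numbered as biological replicates 1 to 3. Total counts per library ran from 4828003 to 6681455.

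The 4 libraries numbered replicate 1 stood apart from the other 8. They detected 22139 to 22615 genes against 19529 to 20201, and mitochondrial rRNA took 6.52% to 8.83% of their counts against 13.1% to 20.9%. Of 14 beta-cell markers, 13 averaged at least 1 CPM (counts per 1000000 counts of the library) in every group, while Neurod1 was listed at 0 counts in all 12 libraries. Iapp, the gene for the peptide, was not among the 14 and was also listed at 0 counts in every library. Cdkn1a, the p53 target that encodes the cell cycle inhibitor p21, served as a yardstick and averaged 22.2 ± 3.44 CPM in urolithin B + IAPP, 154 ± 18.4 in IAPP, 20.2 ± 2.74 in urolithin B and 17.8 ± 2.48 in control cells (SD, n = 3).

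The 6 proteins act at different places in the cell. Unc5b is a receptor for netrin-1 at the cell surface and is known as a dependence receptor, which can signal for death when its ligand is missing. Sulf2 is secreted or held at the surface and removes 6-O-sulfate groups from heparan sulfate, the chains on proteoglycans that bind growth factors. Lrrc25 is a membrane protein with leucine-rich repeats, known mainly from myeloid cells, and in human cells it limits RIG-I and NF-kB signalling. Fam212b, now named Inka2, inhibits the kinase PAK4, which acts on actin and cell adhesion. Zfp862 is a zinc finger protein of the nucleus about which little is known. Hdgfrp3, now named Hdgfl3, belongs to the hepatoma-derived growth factor family, whose members carry a PWWP domain that binds chromatin.

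All levels below are CPM, in which the counts of a library are divided by its total and its TMM scaling factor. Each gene is compared between groups, and the genes are not ranked against each other by level. For each of the 6 genes every IAPP library stood above every other library of the series, so the IAPP group came first in the order of levels without overlap. Against control alone, an easier rule, 7.74% of all tested genes were higher in IAPP cells without overlap. The share of genes with IAPP above every other library was not computed, and the IAPP levels are among the values that chose the genes. Below the IAPP group, neighbouring groups overlapped in every case, so the order of urolithin B + IAPP, urolithin B and control was not resolved. The exception was Zfp862, for which urolithin B + IAPP lay below urolithin B without overlap. RNA came from whole cultures, in which fewer cells of a type and less RNA per cell cannot be told apart.

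**Figure D1:**
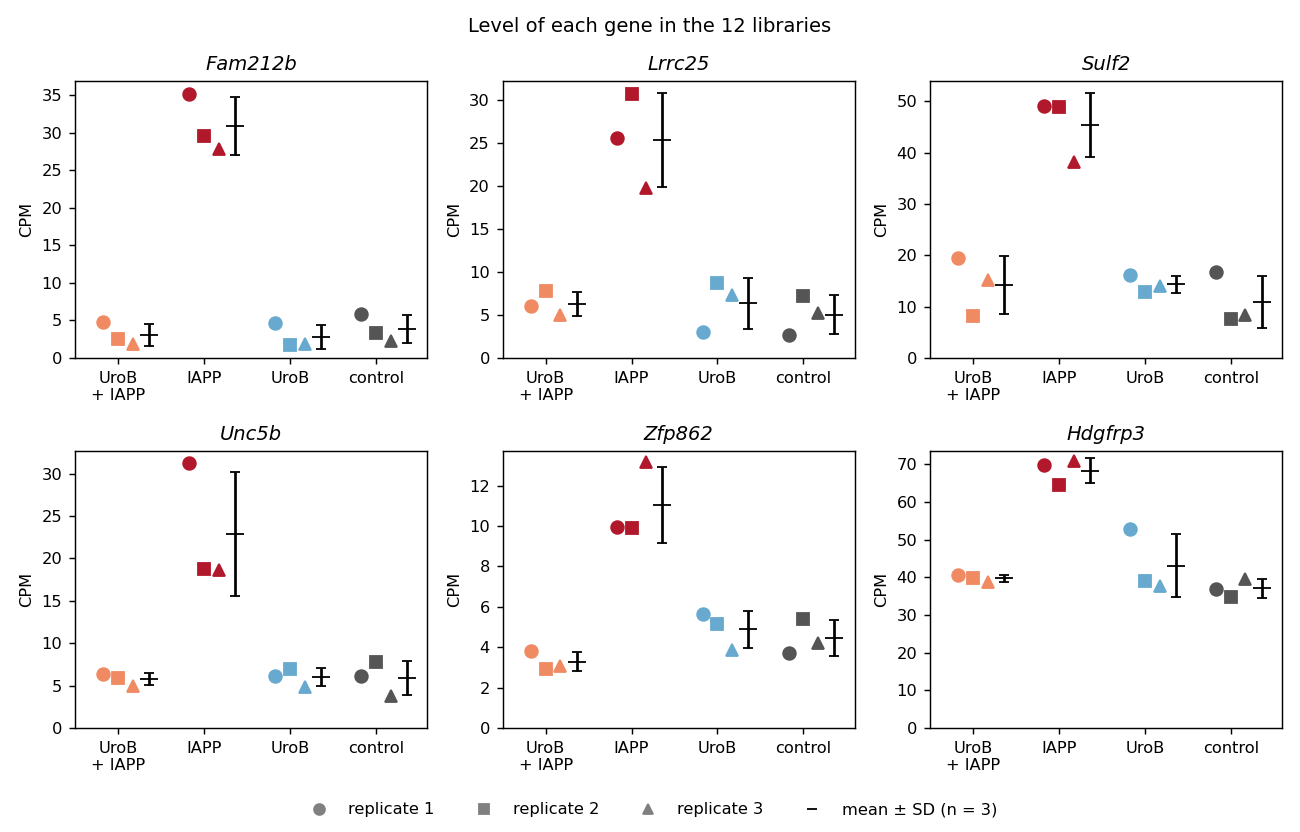
Level of each of the 6 genes in CPM (vertical axis, from 0) in the 12 libraries, by group, with replicate 1 as circles, replicate 2 as squares, replicate 3 as triangles and the mean ± SD of 3 libraries in black. In each panel the 3 IAPP libraries lie above the 9 others, for Fam212b between 27.8 and 35.2 CPM against at most 5.87 CPM.

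Unc5b, the netrin receptor, measured 6.36, 5.88 and 4.96 CPM in urolithin B + IAPP replicates 1, 2 and 3, 31.3, 18.7 and 18.7 CPM in IAPP, 6.19, 7.0 and 4.82 CPM in urolithin B and 6.18, 7.74 and 3.79 CPM in control cells. IAPP replicate 1 was the highest library, and the lowest IAPP library still lay above the highest of the other 9. The fitted log2 fold change was 1.95 ± 0.30 (SE) in IAPP against control cells and -2.0 ± 0.30 in urolithin B + IAPP against IAPP cells. Counts behind these levels were 82 to 195 per library in IAPP and 18 to 40 in control cells.

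Sulf2, the extracellular sulfatase, measured 19.4, 8.18 and 15.2 CPM in urolithin B + IAPP, 49.1, 48.9 and 38.2 CPM in IAPP, 16.1, 12.9 and 14.1 CPM in urolithin B and 16.7, 7.55 and 8.42 CPM in control cells, in replicate order. The coefficient of variation was 39.7% in urolithin B + IAPP, 13.7% in IAPP, 11.2% in urolithin B and 46.3% in control cells, and replicate 1 was the highest library of all 4 groups. Its log2 fold changes were 2.04 ± 0.33 in IAPP against control and -1.66 ± 0.32 in urolithin B + IAPP against IAPP cells.

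Lrrc25, the leucine-rich repeat membrane protein, measured 6.04, 7.76 and 4.96 CPM in urolithin B + IAPP, 25.5, 30.7 and 19.8 CPM in IAPP, 3.01, 8.71 and 7.32 CPM in urolithin B and 2.63, 7.16 and 5.26 CPM in control cells. Replicate 1 was the lowest library in urolithin B and in control cells but not in the 2 groups that had IAPP. Its log2 fold changes were 2.34 ± 0.41 in IAPP against control and -2.02 ± 0.40 in urolithin B + IAPP against IAPP cells. In the RefSeq annotation of GRCr8, Lrrc25 overlaps Gdf15, a secreted stress cytokine of the TGF-beta superfamily, on the opposite strand. Gdf15 itself was listed with 0 to 2 counts in each library. How the counting treated strand is not given in the sources used here, so whether the Lrrc25 counts include reads of Gdf15 is not known.

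Fam212b, the PAK4 inhibitor, measured 4.77, 2.52 and 1.88 CPM in urolithin B + IAPP, 35.2, 29.5 and 27.8 CPM in IAPP, 4.60, 1.71 and 1.93 CPM in urolithin B and 5.87, 3.29 and 2.31 CPM in control cells. Replicate 1 was the highest library within every group, and all 9 libraries of the other 3 groups lay below 6 CPM. It showed the widest separation of the 6 genes, with a log2 fold change of 2.98 ± 0.44 in IAPP against control, a fold of 7.90, and -3.31 ± 0.45 in urolithin B + IAPP against IAPP cells. In control cells the gene rested on 11 to 38 counts per library, against 122 to 219 in IAPP cells.

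Zfp862, the zinc finger protein, measured 3.81, 2.94 and 3.08 CPM in urolithin B + IAPP, 9.95, 9.92 and 13.2 CPM in IAPP, 5.66, 5.13 and 3.85 CPM in urolithin B and 3.71, 5.42 and 4.21 CPM in control cells. The highest urolithin B + IAPP library lay just under the lowest urolithin B library and above the lowest control library. Its log2 fold changes were 1.31 ± 0.27 in IAPP against control and -1.74 ± 0.28 in urolithin B + IAPP against IAPP cells, on 14 to 62 counts per library over those 3 groups.

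Hdgfrp3, the growth factor relative, measured 40.7, 39.9 and 38.8 CPM in urolithin B + IAPP, 69.7, 64.5 and 70.8 CPM in IAPP, 52.9, 38.9 and 37.6 CPM in urolithin B and 36.9, 34.6 and 39.6 CPM in control cells. The IAPP libraries were close together, with a coefficient of variation of 4.91%, and urolithin B replicate 1 was the highest library outside IAPP. Its log2 fold changes were 0.88 ± 0.13 in IAPP against control and -0.78 ± 0.13 in urolithin B + IAPP against IAPP cells. Hdgfrp3 overlaps Tm6sf1 on the opposite strand in the same annotation. Tm6sf1 measured 17.8 to 21.9 CPM in urolithin B + IAPP, 19.2 to 24.6 in IAPP, 16.2 to 23 in urolithin B and 14.5 to 15.8 in control cells. Whether the counts of either gene include reads of the other is not known.

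Against control, 5 of the 6 genes were past the edgeR threshold (adjusted p of 0.05) in IAPP cells, where 0.547% of tested genes were called higher, and the rule that chose them used this contrast. Zfp862 was not past it (edgeR adjusted p = 0.0521). With the replicate number as a block in the fit, 6 of the 6 and 3.78% of all genes were called higher. DESeq2 also called 6 of the 6. It called more genes than edgeR in this contrast, and its count over all genes is given in the last section. These calls describe the values that chose the genes and are no support for them. Their median log2 fold change was 2.00, beside 0.05 over all tested genes. With library size alone as the scaling, 1 of the 6 (Lrrc25) was past the threshold, and 24 of 55 called genes were higher, against 92 of 142 with TMM. Without control replicate 2 the count was also 1 (Unc5b), and it was 3 without IAPP replicate 2, IAPP replicate 3 or control replicate 3.

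With urolithin B given before the peptide, each urolithin B + IAPP library lay below each IAPP library for each of the 6, and 6.84% of all tested genes were lower without overlap. By edgeR 5 of 6 were called lower, against 0.422% of all genes, and Lrrc25 was not past the threshold (edgeR adjusted p = 0.0553). The block called 6 of 6 and 2.73% of all genes lower, DESeq2 gave Lrrc25 an adjusted p of 0.00047, and edgeR called it in 2 of the 12 fits that each left out 1 library. This contrast shares its 3 IAPP libraries with the one that chose the genes, so it is also a description. No gene of the 6 was past the threshold without urolithin B + IAPP replicate 2 or without urolithin B + IAPP replicate 3. With library size alone the count was 0, and 7 of 18 called genes were higher, against 26 of 97 with TMM. The count was 2 without IAPP replicate 2 or 3, and 3 without IAPP replicate 1 or control replicate 2.

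**Figure D2:**
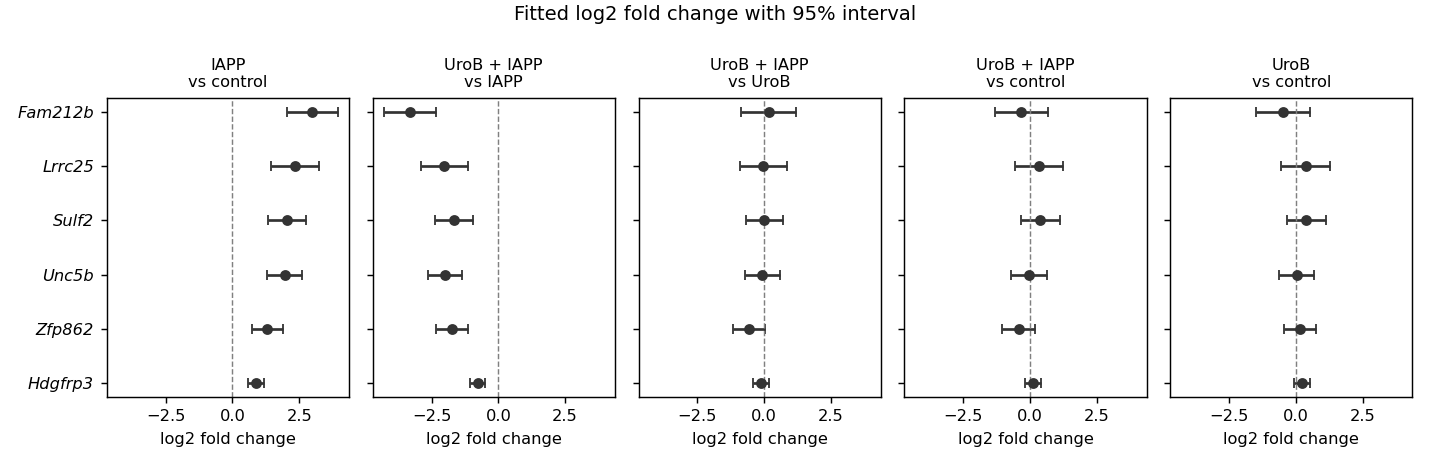
Fitted log2 fold change (horizontal axis, 0 dashed) of each gene in 5 comparisons, with bars for the 95% interval of the edgeR fit. All 6 lie above 0 in IAPP against control and below 0 in urolithin B + IAPP against IAPP, while the other 3 panels hold estimates between -0.57 and 0.38 whose intervals all include 0.

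The comparison that shares no library with the choice of the genes is urolithin B + IAPP against urolithin B, the effect of the peptide in cells that had the metabolite first. None of the 6 genes passed the test there, where edgeR called 0% of all 16814 genes. An unadjusted edgeR p under 0.05 was found for 281 genes, fewer than a share of 0.05 of those tested. The biological coefficient of variation of this fit was 0.33, against 0.10 with the block, so its lack of calls says little about small differences. The log2 fold changes with their 95% intervals were -0.07 (-0.73 to 0.59) for Unc5b, 0.00 (-0.70 to 0.71) for Sulf2 and -0.03 (-0.92 to 0.86) for Lrrc25. They were 0.17 (-0.85 to 1.19) for Fam212b, -0.57 (-1.17 to 0.03) for Zfp862 and -0.12 (-0.41 to 0.18) for Hdgfrp3. The edgeR adjusted p was 1 for all 6 genes. With the block 2 of all genes were called, 0.0119%, and none of the 6, while DESeq2 called 0. Zfp862 was the one gene of the 6 whose urolithin B + IAPP libraries all lay below the urolithin B libraries, as 2.49% of all tested genes did.

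Pairing libraries by replicate number gave the same sign in all 3 pairs of IAPP and control cells for each gene. Every IAPP library lay above every control library for these genes, so any pairing gives that sign. This contrast also chose the genes, so the differences are a description of their size. The differences in log2 CPM for replicates 1, 2 and 3 were 2.51, 3.03 and 3.39 for Fam212b, 3.11, 2.04 and 1.84 for Lrrc25 and 1.54, 2.64 and 2.14 for Sulf2. They were 2.27, 1.23 and 2.20 for Unc5b, 1.34, 0.83 and 1.57 for Zfp862 and 0.91, 0.89 and 0.83 for Hdgfrp3. Lrrc25 thus had its largest difference in replicate 1, whereas Fam212b and Sulf2 had their smallest there. Between urolithin B + IAPP and urolithin B, Lrrc25 was again spread most, at 0.93, -0.16 and -0.53. Zfp862, whose libraries did not overlap there, was negative in all 3 pairs.

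**Figure D3:**
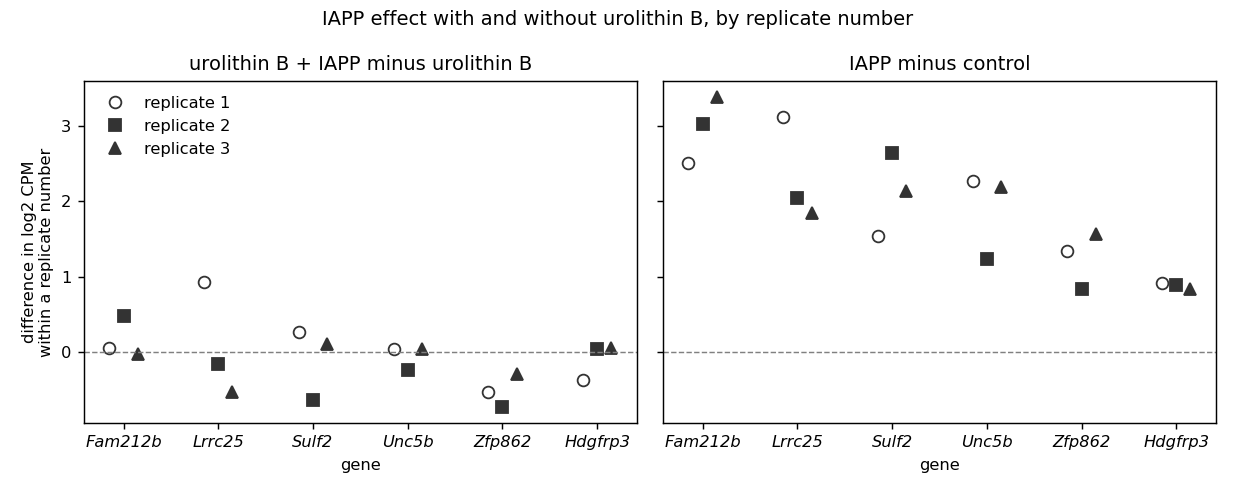
Difference in log2 CPM between 2 libraries with the same replicate number (vertical axis), for urolithin B + IAPP minus urolithin B on the left and IAPP minus control on the right, with a marker per replicate number. On the right all 18 points lie between 0.83 and 3.39, and on the left they lie between -0.74 and 0.93.

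Against control, neither urolithin B + IAPP nor urolithin B alone moved any of the 6 genes past the threshold, and edgeR called 0% of all genes in both comparisons (0.0714% and 0.00595% with the block, none of them among the 6). These comparisons share the control libraries with each other and with the contrast that chose the genes. The log2 fold changes in urolithin B + IAPP against control were -0.05 ± 0.30 for Unc5b, 0.38 ± 0.33 for Sulf2, 0.32 ± 0.42 for Lrrc25, -0.33 ± 0.46 for Fam212b, -0.43 ± 0.28 for Zfp862 and 0.10 ± 0.14 for Hdgfrp3. For urolithin B against control they were 0.02 ± 0.30, 0.38 ± 0.33, 0.35 ± 0.42, -0.50 ± 0.46, 0.14 ± 0.27 and 0.22 ± 0.13 for the same genes in that order. At an unadjusted p under 0.05, edgeR had 411 genes in urolithin B + IAPP against control and 151 in urolithin B against control. Both counts are below a share of 0.05 of the tested genes. DESeq2 called 6 and 0 genes in these comparisons.

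The difference between the peptide's effect with and without urolithin B, the interaction term, was -2.02 ± 0.42 for Unc5b, -2.04 ± 0.46 for Sulf2, -2.37 ± 0.58 for Lrrc25, -2.81 ± 0.64 for Fam212b, -1.88 ± 0.39 for Zfp862 and -1.0 ± 0.19 for Hdgfrp3. It contains the contrast that chose the genes and is a description. By edgeR 0 of the 6 were past the threshold, at adjusted p from 0.157 to 0.333, where 0.0297% of all genes were called. With the replicate block 6 of 6 were past it, at adjusted p from 0.000105 to 0.0113, where 1.63% of all genes were called.

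Likeness among the 6 genes was described over all 12 libraries and again without the IAPP group. Pearson's r of log2 CPM ran from 0.70 to 0.93 over the 15 pairs of genes, and it was highest for Fam212b with Unc5b. Over the 9 libraries without IAPP alone it ran from -0.70, for Fam212b with Lrrc25, to 0.43, for Unc5b with Zfp862. All pairs share libraries, depth and the replicate 1 offset, so these values describe this set of libraries.

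Upstream sequence is shown for Fam212b and Unc5b, the pair with the highest r over all 12 libraries. That r includes the IAPP libraries that chose both genes. Over the 9 libraries without IAPP alone their r was 0.37, and shared regulation was not tested. The letters are the 250 bases before the annotated start in the RefSeq promoter table of GRCr8, 5′ to 3′ on the gene's strand, at chr2:195873367-195873616 (plus strand) for Fam212b and chr20:29307271-29307520 (minus strand) for Unc5b. Capitals mark the box CCAAT, read as ATTGG on the other strand, in Fam212b, and the GC box GGGCGG or its complement CCGCCC in Unc5b.
Fam212b: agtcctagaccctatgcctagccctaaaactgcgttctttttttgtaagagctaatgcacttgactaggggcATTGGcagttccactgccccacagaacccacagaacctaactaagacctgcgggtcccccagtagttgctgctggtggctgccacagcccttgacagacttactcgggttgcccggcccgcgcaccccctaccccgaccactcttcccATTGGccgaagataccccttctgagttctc
Unc5b: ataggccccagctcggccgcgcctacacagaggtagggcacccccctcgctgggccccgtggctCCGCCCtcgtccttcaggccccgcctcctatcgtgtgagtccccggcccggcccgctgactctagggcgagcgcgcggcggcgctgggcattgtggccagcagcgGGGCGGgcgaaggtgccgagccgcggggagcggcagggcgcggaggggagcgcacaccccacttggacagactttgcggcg

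Fam212b held ATTGG 2 times in these 250 bases and Unc5b held the GC box 2 times. All 6 genes had an entry in the table, with 9 windows of 300 bases (250 before the start and 50 after it), of which 4 were Zfp862 starts. For Fam212b and Unc5b the bases before the start lay outside the annotated gene. In all other windows some or all of them lay inside it. On both strands, CCAAT was in 3 of the 9 windows (Fam212b, Sulf2 and a Zfp862 start) and in 37.5% of all 33469 windows. GGGCGG was in 3 of 9 (Unc5b, Hdgfrp3 and, after its start, Fam212b) and in 33.1% of all. A p53 half-site was in 1 window, at bases 38 to 47 after a Zfp862 start, and in 7.98% of all. A full p53 site with a spacer of 0 to 13 bases was in 0 of 9 and in 0.0598% of all. TATAAA was in 0 of the 9 and in 14.2% of all windows. The AP-1 letters TGANTCA were in 0 of the 9 and in 7.33% of all, and the E-box CACGTG was in 0 of the 9 and in 6.42% of all. GC content was 78.3% in the Hdgfrp3 window and 74.3% in the Unc5b window, beside a median of 51.7% over all windows. A match here is a description, and no match says only that the letters are absent from the window.

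Closest relatives of 3 of the genes were measured in the same libraries. Sulf1, the other extracellular 6-O-sulfatase, averaged 14.2 ± 0.88 CPM in IAPP and 18.5 ± 3.51 CPM in control cells, a log2 fold change of -0.38 ± 0.17 that did not pass (edgeR adjusted p = 0.483). Among the other netrin receptors of the UNC5 family, Unc5a averaged 31.1 ± 11.8 CPM in IAPP and 15.5 ± 7.81 CPM in control cells. Its log2 fold change of 1.0 ± 0.44 was called with the block (edgeR adjusted p = 0.000471) and not without it (0.476). Unc5c stood at 0.38 ± 0.18 and was not called with or without the block. Unc5d stood at 0.01 ± 0.33, or -0.05 with library size alone as the scaling, and was not called either. In the HDGF family, Hdgf stood at -0.07 ± 0.13, Psip1 at -0.09 ± 0.15 and Hdgfrp2 at 0.03 ± 0.12, which was -0.03 with library size alone, and none was called with or without the block. Fam212a, the closest relative of Fam212b, and Hdgfl1 were listed at 0 counts in all 12 libraries.

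**Figure D4:**
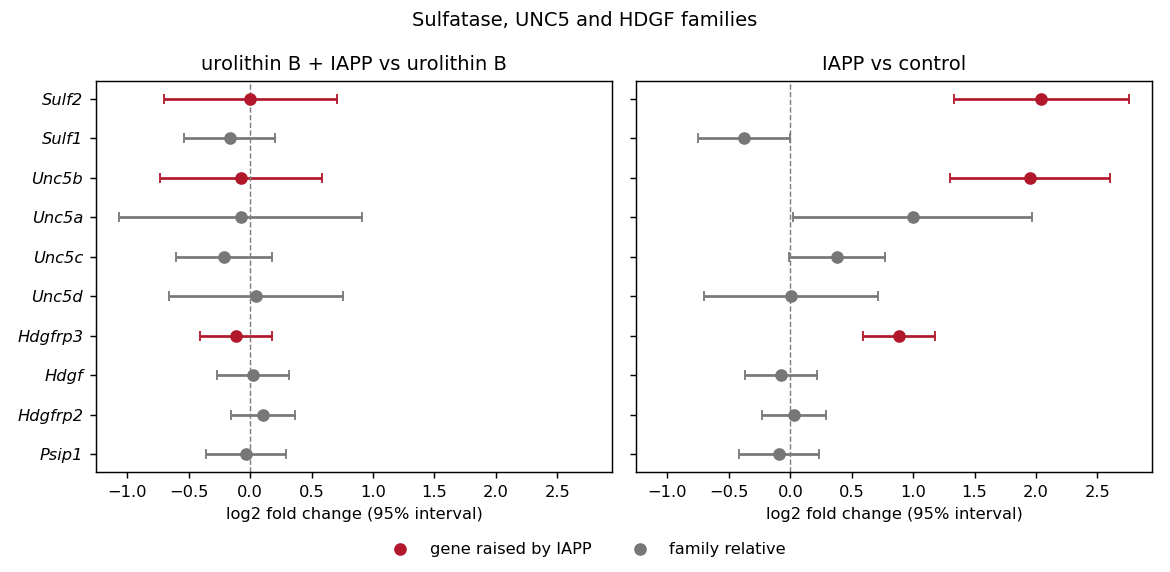
Fitted log2 fold change with its 95% interval (horizontal axis, 0 dashed) for Sulf2, Unc5b and Hdgfrp3 in red and their family relatives in grey, in urolithin B + IAPP against urolithin B on the left and IAPP against control on the right. On the right the red points lie between 0.88 and 2.04 and the grey points between -0.38 and 1.00, while on the left every interval includes 0.

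Around Sulf2, 31 of 35 genes of heparan sulfate synthesis, modification and core proteins were tested, and in IAPP against control 0 passed, beside 0.845% of all genes called in either direction. Their median log2 fold change was 0.21, beside 0.05 over all genes. With the block, which called 3.78% of all genes higher and 4.04% lower, 3 of the list were higher by the log2 fold changes of that fit, namely Ext1 (a chain polymerase, 0.58), Hs3st2 (a 3-O-sulfotransferase, 1.34) and Hpse (heparanase, 0.46), and Ndst1, an N-deacetylase and sulfotransferase, was lower (-0.66). By DESeq2 the adjusted p in IAPP against control was 0.0392 for Ext1, 0.0716 for Hs3st2, 0.00552 for Hpse and 0.00698 for Ndst1. In urolithin B + IAPP against IAPP, where 0.577% of all genes were called, Hpse was the 1 edgeR call of the list without the block. With the block 4 were lower, where 2.73% of all genes were, namely Ext1 (-0.47), Ndst4 (an N-deacetylase and sulfotransferase, -0.76), Hs3st2 (-0.83) and Hpse (-0.66). Hpse fell to 41.9, 36.5 and 41.2 CPM in the urolithin B + IAPP libraries, against 64.0, 62 and 62.8 CPM in the IAPP libraries. The groups did not overlap, and the log2 fold change was -0.66 ± 0.11 (edgeR adjusted p = 0.0183). With library size alone the edgeR adjusted p was 0.459, and Hpse was called in 5 of the 12 fits that each left out 1 library. DESeq2 gave Hpse an adjusted p of 9.15e-06 in this contrast.

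Around Unc5b, 16 of 20 netrins, receptors and partners were tested and 0 passed in IAPP against control, with a median of 0.29. The block called 3 higher, where 3.78% of all genes were, namely the netrin-G gene Ntng2, Unc5a and Dapk1, a death-associated kinase known to act downstream of Unc5b. In urolithin B + IAPP against IAPP, 1 of the 16 was lower without the block, where 0.422% of all genes were. With the block 4 were lower, where 2.73% of all genes were: Ntng2 (-2.0), Unc5a (-1.07), the netrin receptor gene Dcc (-0.55) and Dapk1 (-0.61). Dapk1, the call made without the block, fell in urolithin B + IAPP cells, with 112, 106 and 111 CPM against 164, 165 and 170 CPM in IAPP cells, without overlap. Its log2 fold change was -0.60 ± 0.11 (edgeR adjusted p = 0.0418), with an adjusted p of 0.659 with library size alone and a call in 3 of 12 fits with 1 library left out. DESeq2 gave Dapk1 an adjusted p of 7e-06 in this contrast. In IAPP against control DESeq2 gave 0.0025 for Dapk1 and 0.326 for Unc5a. Ntn1, the ligand, had a log2 fold change of -0.29 ± 0.52 in IAPP against control cells and was not called.

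Around Fam212b, 12 of 14 genes of the PAK and LIM kinase pathway were tested and 0 passed in IAPP against control, with a median of -0.05. Pak4, the kinase that Fam212b inhibits, stood at -0.11 ± 0.16. With the block 3 were called lower, where 4.04% of all genes were, among them Pak3 and the cofilin kinase Limk1, at -0.86 and -0.57 in that fit. By DESeq2 the adjusted p was 0.335 for Pak3 and 0.00279 for Limk1. In urolithin B + IAPP against IAPP the block called 3 of the list and 2.51% of all genes higher, with Pak3 at 0.47 and Limk1 at 0.48. Around Lrrc25, 19 of 21 genes of RIG-I and NF-kB signalling were tested and 0 passed, with a median of 0.19. The block called 3 higher in IAPP cells, where 3.78% of all genes were, namely Tmem173 (which encodes STING, 1.10), Irf7 (2.46) and Relb (0.53), and 0 in urolithin B + IAPP against IAPP.

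Of 11 tested relatives of Hdgfrp3 with a PWWP domain and of 9 tested partners of zinc finger repressors, 0 passed in any of the 6 comparisons, with or without the block. The medians in IAPP against control were 0.03 and -0.03. By comparison, 13 of 23 tested genes of core p53 arrest, feedback and death were higher in IAPP against control, with a median of 1.10, where 0.547% of all genes were higher. Of the same 23, 12 were lower in urolithin B + IAPP against IAPP cells, where 0.422% of all genes were. The block called 15 higher in the first comparison, where 3.78% of all genes were, and 15 lower in the second, where 2.73% were. The 23 genes share those libraries with the 6 genes.

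The genes whose log2 CPM ran most like each of the 6 over the 12 libraries were found among 10742 tested genes with at least 5 CPM on average. For Fam212b they were Abhd4 (r = 0.98), Tp53inp1, Kit, Nfia and Svop, at r of 0.97 to 0.98. For Unc5b they were Svop (0.98), Cdkn1a (0.96), Plk2, Kit and Mdm2, and for Sulf2 they were Tap1 (0.97), Tp53inp1 (0.95), Btbd10, Alcam and Mgmt. Hdgfrp3 ran closest to Mgmt (0.96), Mdm2, Tp53inp1, Zak and Ttc17. Lrrc25 had the lowest values, with Fat1 (0.94), Phlda3 (0.93), Susd6, Pitpnc1 and Thyn1, and Zfp862 ran with H2afy2 (0.95), Tox3, Casz1, Arhgap35 and Gnptab. These r include the IAPP libraries that chose the 6 genes, so they describe these libraries. After the mean of each replicate number was subtracted, the 5 closest genes shared 1 with the first list for Fam212b (Abhd4), 2 for Unc5b (Svop and Cdkn1a), 1 for Sulf2 (Tap1), 2 for Hdgfrp3 (Zak and Mgmt), 3 for Lrrc25 (Fat1, Phlda3 and Susd6) and 0 for Zfp862. The genes closest by that measure were Abhd4 (0.99) for Fam212b, Cdkn1a (0.98) for Unc5b, Gata3 (0.97) for Sulf2, Eif2ak2 (0.97) for Hdgfrp3, Phlda3 (0.98) for Lrrc25 and Traf3 (0.98) for Zfp862.

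Markers of other cells that could carry some of these genes were counted in each library. Lrrc25 is known from myeloid cells, and of 11 leukocyte markers 5 in urolithin B + IAPP, 7 in IAPP, 6 in urolithin B and 5 in control cells averaged at least 1 CPM, with Lyz2 at 0 in all 12 libraries. Their summed level ran from 10.6 to 50.0 CPM in urolithin B + IAPP, 11.4 to 56.0 in IAPP, 11.4 to 39.1 in urolithin B and 9.89 to 45.1 in control cells, and replicate 1 was the highest in every group. In control and urolithin B cells Lrrc25 was lowest in that library. IAPP replicates 1, 2 and 3 had 25.5, 30.7 and 19.8 CPM of Lrrc25 at marker sums of 56.0, 14.4 and 11.4 CPM. These IAPP levels of Lrrc25 are among the values that chose the gene. Fibroblast and endothelial markers, of which 5 or 6 of 8 averaged at least 1 CPM per group with Col1a2 at 0, summed to 14.9 to 65.1 CPM in urolithin B + IAPP, 15.7 to 96.2 in IAPP, 14.5 to 40.5 in urolithin B and 25.0 to 57.3 in control cells. Of the other islet hormone and regulator genes 2 of 7, and of exocrine and duct genes 3 of 8, averaged at least 1 CPM in each group. The islet sums were 48.0 to 206 CPM in urolithin B + IAPP, 32.1 to 136 in IAPP, 43.9 to 215 in urolithin B and 25.9 to 105 in control cells. The exocrine sums were 17.1 to 29.4, 22.8 to 31.1, 20.5 to 25.1 and 14.3 to 26.4 CPM in the same groups. The part of these cells in the results was not tested. Without the replicate 1 libraries the log2 fold changes in IAPP against control were 3.33 for Fam212b, 2.01 for Lrrc25, 2.44 for Sulf2, 1.68 for Unc5b, 1.25 for Zfp862 and 0.86 for Hdgfrp3.

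**Figure D5:**
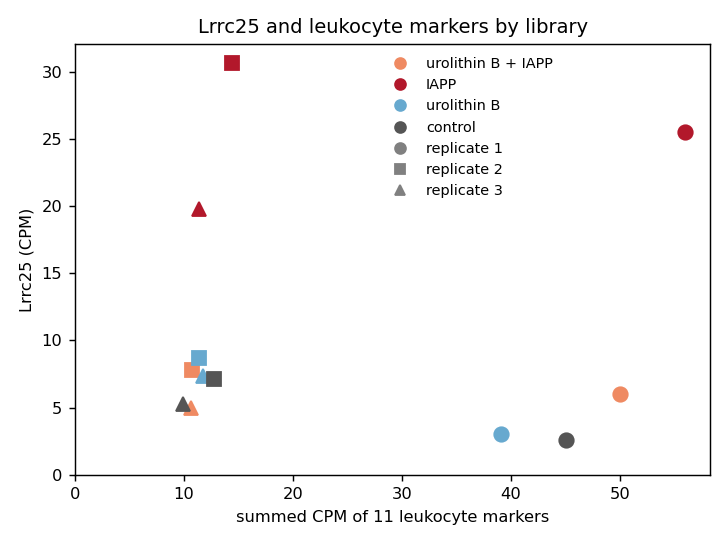
Lrrc25 level (vertical axis, CPM) against the summed level of 11 leukocyte markers (horizontal axis, CPM) in the 12 libraries, coloured by group with a marker shape per replicate number. The 4 replicate 1 libraries lie at 39.1 CPM of markers or more, and among the other 8 the 2 IAPP libraries have the highest Lrrc25 at 30.7 and 19.8 CPM. IAPP replicate 1 has 25.5 CPM of Lrrc25 at 56.0 CPM of markers.

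Genes next to the 6 in the annotation were looked at as a check of position. Of the 9 that were tested, edgeR called 0 in IAPP against control without the block. With it 3 were called, where 7.83% of all genes were: Rap1a next to Fam212b (-0.37), Ssbp4 next to Lrrc25 (-0.72) and Slc29a3 next to Unc5b (0.92). Slc29a3, a nucleoside transporter, had a log2 fold change without the block of 0.94 ± 0.26 (edgeR adjusted p = 0.137, and 0.0134 with the block). Tm6sf1, which overlaps Hdgfrp3, had 0.52 ± 0.17 (edgeR adjusted p = 0.228, and 0.0536 with the block). By DESeq2 the adjusted p was 0.0481 for Slc29a3 and 0.168 for Tm6sf1.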

How the data were processed

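Gene expression was measured in 12 libraries of INS-1 832/3 cells, 3 in each of 4 groups taken from the titles. The labels' protocols give the High Pure kit for RNA and QuantSeq 3prime mRNA FWD for the libraries, a kit that reads transcript ends. The submitters' processing notes name FastQC, Bowtie2 and SAMtools without versions, while the read counter, its treatment of strand, the annotation used and the genome version are not given in these sources. Deposited by the authors were whole-number, unnormalized read counts for each gene, in a table that the series text calls corrected. Of 31368 genes 24611 had a count.

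From these counts, edgeR 4.0.16 in R 4.3.3 was run with TMM scaling, filterByExpr on the group, 1 quasi-likelihood fit over the 12 libraries, and p adjusted by Benjamini-Hochberg over 16814 genes at 0.05. SE is the log2 fold change over the root of its F value, and intervals are 95%. The labels do not say that replicates came from separate cultures, and the p-values then reflect only the spread among these libraries, possibly a technical one. No pair of libraries in a group agreed within sampling noise (chi-square per degree of freedom 3.71 or more).

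All 18 pairs of libraries with the same replicate number correlated in their deviations from the group means, with r between 0.44 and 0.89. For pairs with different numbers r ran from -0.75 to 0.62, so the ranges overlapped. Replicate 1 stood apart on principal component 1 (68.6%). Without replicate 1 the same-number r ran from -0.06 to 0.02. These values show an offset of replicate 1 and no pairing among the other libraries. The blocked fit takes up that offset and is given where it changes a call.

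The 6 genes, the gene lists and the markers were chosen with earlier results of these data known. Named besides the 6 were Cdkn1a, family relatives, up to 4 called members of each list by smallest p, and for each of the 6 the 5 genes with the highest r (log2 CPM, prior count 2). Pak4, Ntn1, Neurod1 and Iapp were named for their roles, and overlapping or adjacent genes for their position, with their values already seen. The values of 1 called gene of the PAK and LIM kinase list are not reported here. Alternatives were DESeq2 1.42.0, its size factors, library size alone, no filter, at least 5 CPM in 3 libraries, the block, the compared groups alone, replicates 2 and 3 alone, and each library left out. RefSeq GRCr8 tables gave names, gene order and promoters. All table columns were used.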

Additional observations from a re-analysis of the deposited data

Results flagged for a closer look

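Zfp862 is the one gene of the 6 whose difference had one sign in every replicate number for the peptide after urolithin B and the opposite sign for the peptide alone. Its groups did not overlap in either comparison, so any pairing of the libraries gives these signs. The rise after the peptide alone chose the gene. Between urolithin B + IAPP and urolithin B, 2.49% of all tested genes were lower without overlap. In urolithin B + IAPP minus urolithin B the differences in log2 CPM were -0.53, -0.74 and -0.29 for replicates 1, 2 and 3, and in IAPP minus control they were 1.34, 0.83 and 1.57. The fitted log2 fold change of the first was -0.57 ± 0.28 with a 95% interval of -1.17 to 0.03, which includes 0, on 14 to 33 counts per library (edgeR adjusted p = 1). The difference between both effects was -1.88 ± 0.39 (edgeR adjusted p = 0.2, and 0.0113 with the replicate block), and since the gene was chosen for its value in IAPP against control, this is a description.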

How the results depend on the processing

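Over the alternatives, 599 of the results for single genes kept their direction and side of the threshold, 25 moved past it, 51 fell short of it and 32 turned sign, all of these in the 3 comparisons in which edgeR called 0 genes. In IAPP against control, where 142 genes and 5 of the 6 were called, the count of genes was 488 with DESeq2, 55 with library size alone (1 of the 6), 218 with at least 5 CPM, 1316 with the replicate block, 90 with the compared groups alone and 754 with replicates 2 and 3 alone. In urolithin B + IAPP against IAPP, where 97 genes and 5 of the 6 were called, it was 308 with DESeq2, 18 with library size alone (0 of the 6), 881 with the block, 23 with the compared groups alone (2 of the 6) and 418 with replicates 2 and 3 alone. DESeq2 called 6 genes in urolithin B + IAPP against control, and the block called 12 there, 2 in urolithin B + IAPP against urolithin B and 1 in urolithin B against control, where the main count was 0 in each. The interaction, with 5 genes and 0 of the 6, had 115 genes with DESeq2 (6 of the 6), 274 with the block (6 of the 6), 107 with replicates 2 and 3 alone (3 of the 6), 9 with at least 5 CPM and 3 without a filter. Beside the calls named in the report, the block changed no other call of the 6. Leaving out 1 library at a time gave 42 to 154 genes and 1 to 5 of the 6 in IAPP against control, 25 to 99 genes and 0 to 6 of the 6 in urolithin B + IAPP against IAPP, and 1 to 2 genes in the interaction. The lowest counts came without control replicate 2 and without urolithin B + IAPP replicate 2 or 3. For IAPP against control, which chose the genes, the fits with 1 library left out are a description. Unc5b was called there in 12 of 12, Fam212b in 11, Hdgfrp3 in 10, Sulf2 in 9, Lrrc25 in 6 and Zfp862 in 0. In urolithin B + IAPP against IAPP these were 10, 10, 5, 2, 2 and 8. The sign turned for Sulf2 in urolithin B + IAPP against urolithin B, to -0.0082 with DESeq2, -0.0044 with its size factors, -0.043 with library size alone, -0.0014 without a filter, -0.016 with the block and -0.20 with replicates 2 and 3 alone. It also turned for Hdgfrp3 in urolithin B + IAPP against control (-0.0067, library size alone), for Lrrc25 in urolithin B + IAPP against urolithin B (0.011, block), and with replicates 2 and 3 alone for Hdgfrp3 in urolithin B + IAPP against urolithin B (0.015), Lrrc25 in urolithin B + IAPP against control (-0.0064) and Zfp862 in urolithin B against control (-0.080). With 1 library left out, log2 fold changes in urolithin B + IAPP against urolithin B ran from -0.30 to 0.75 for Fam212b, -0.37 to 0.28 for Lrrc25, -0.27 to 0.27 for Sulf2, -0.20 to 0.058 for Unc5b and -0.20 to 0.054 for Hdgfrp3. In urolithin B + IAPP against control they ran from -0.81 to 0.13 for Fam212b, -0.0011 to 0.68 for Lrrc25 and -0.27 to 0.19 for Unc5b, and in urolithin B against control from -0.20 to 0.26 for Unc5b. The cause was not tested. DESeq2 gave no adjusted p for 7 of its results, which are left out. At 10 to 56 counts per library outside IAPP for Fam212b, Lrrc25, Unc5b and Zfp862, depth limits small differences.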
